A study of Mus musculus with 8 samples.

Results

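This account covers 10 genes that mark the blood vessels of the brain, measured in the striatum of female mice with 1 or 2 intact copies of Brd2. The endothelial genes were Cldn5, Pecam1, Tek, Flt1, Kdr, Cdh5, Slc2a1 and Abcb1a, and the mural (pericyte) genes were Pdgfrb and Rgs5. Members were all probes whose gene name on the array equalled 1 of these 10 symbols, which gave 13 probes on 22 spots. They are 10 of the 19837 genes tested. The choice of members did not use measured values of genotype, although earlier results of these data were known when they were chosen.

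Adult C57Bl/6j females came from crosses of Brd2+/- parents after repeated backcrossing, so both groups shared strain, sex and breeding scheme. The 4 wildtype samples carried no inserted allele, and the 4 heterozygous samples carried 1 gene-trap insertion in Brd2, which encodes a bromodomain protein that binds acetylated histones. The trap is present in every cell, vessel cells included, and the sources used here do not say whether each sample came from 1 animal or a pool. Samples were dissected striatum that had been frozen, and 1 label field also names the prefrontal cortex. Each of 4 two-colour arrays on 1 slide carried 2 samples of the same genotype, replicates 1 and 3 in the dye Cy3 and replicates 2 and 4 in Cy5. The p-values thus measure only how far these samples spread, which may be technical in part.

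Brain endothelial cells form a barrier: tight junctions close the gaps between them, and transporters decide what enters and leaves the tissue. Pericytes share the basement membrane with the endothelium, and depend on signalling through the receptor encoded by Pdgfrb. VEGF receptors and the angiopoietin receptor on endothelial cells govern the growth and upkeep of vessels. In RNA from whole tissue, fewer vessel cells and less RNA per vessel cell cannot be told apart.

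In brief, none of the 10 genes passed the test, which was limma over all genes (adjusted p under 0.05, Benjamini-Hochberg). The background was also 0% of 19837 genes. All 4 heterozygous values of Pdgfrb lay above the 4 wildtype values, Tek and Cdh5 leaned the same way, and Kdr (at 1 of its 2 probes) and Rgs5 leaned down. At an unadjusted p under 0.05 there was 1 of 10 members, Pdgfrb, where 8.7% of all genes fell under that limit (3.89% higher and 4.8% lower in heterozygous samples). A share of 1 in 10 is near that background. In a fit over single probes, none of the 12 member probes passed, where 0.00395% of 25310 probes did. Again only that of Pdgfrb had an unadjusted p under 0.05, against 8.89% of probes.

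Among facts of the series that touch these genes, the targeted gene Brd2 had all its heterozygous values below the wildtype ones (difference -0.85 on the log2 scale, SE 0.192, n = 4 per genotype, adjusted p = 0.429 in limma). A second, dim Brd2 probe measured 0.29 (SE 0.170). The library labelled heterozygous replicate 3 had a Brd2 value of 12.57, next to the lowest wildtype value of 12.64, so its label is in doubt. It also had the smallest share of spots well above background, 37.7%, against 43.6% to 75.5% in the other 7 samples, and the highest level of the choroid plexus gene Ttr, 16.29 against 11.52 to 14.15. The difference of each of the 10 genes is therefore given with and without it, as is that of other named genes or lists where it turned or moved by over 1.5 times. The striatal neuron markers Drd1, Drd2 and Ppp1r1b were well above background in every sample, except for Drd2 in 1 heterozygous sample. They differed by -0.53 (SE 0.348), -0.28 (SE 0.299) and -0.36 (SE 0.232), and without heterozygous replicate 3 by -0.16, 0.02 and -0.15.

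Unless stated otherwise, levels are normalized single-channel intensities on the log2 scale, and differences are heterozygous minus wildtype on that scale with the SE of the limma fit. Levels of different probes are not compared, because each probe has its own brightness. All 10 genes passed the filter on dim probes (well above background in at least 4 of 8 samples), and 8 of them were well above background in all 8 samples. Tek was so in 2 wildtype and 3 heterozygous samples, and Rgs5 in 4 and 3. Of the 13 probes, 12 were kept.

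**Figure D1:**
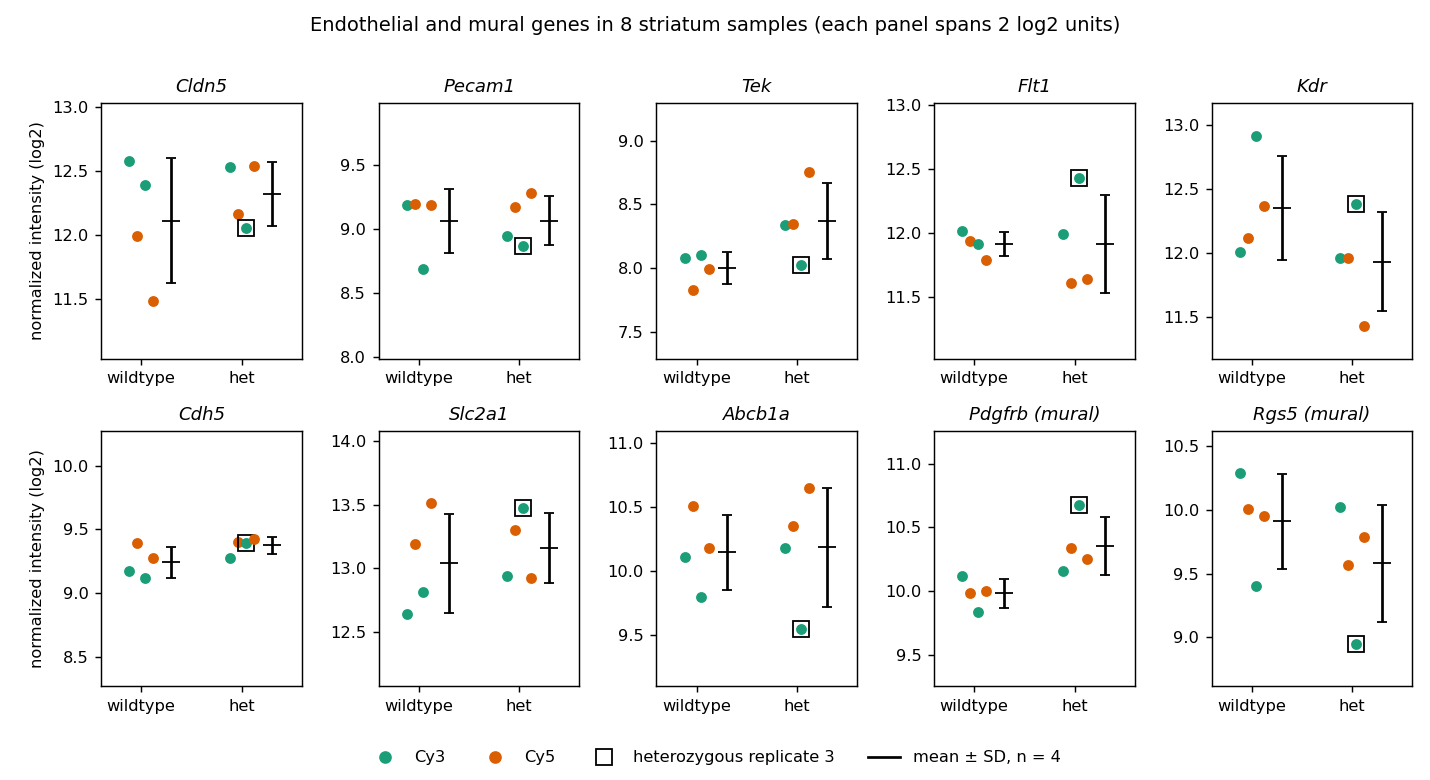
Normalized intensity (log2, vertical axes, each spanning 2 units) of the 10 genes in 4 wildtype and 4 heterozygous samples, with points coloured by dye, bars giving mean ± SD, and squares marking heterozygous replicate 3. The heterozygous samples of Pdgfrb sit between 10.16 and 10.67, above all wildtype samples, and the groups overlap for the other 9 genes.

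Kdr and Flt1 were read by more than 1 probe, and since these probes did not all give the same answer, the first 30 of their 60 bases are shown 5′ to 3′ in lower case, as the array files list them. Positions are on mm9, all on the minus strand of chromosome 5. No gene model of that build was used here, so exon and UTR are not assigned.

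Kdr, transcript base 4291, chr5:76330395-76330454, probe A_55_P2094469: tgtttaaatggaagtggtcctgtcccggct
Kdr, transcript base 5377, chr5:76329309-76329368, probe A_51_P316553: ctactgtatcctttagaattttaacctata
Flt1, base 6201 of the RefSeq transcript, chr5:148373791-148373850, probe A_51_P398723: aagtaaagaaaagctatcgggattctctgg
Flt1, base 6095 of an Ensembl transcript, chr5:148446872-148446931, probe A_55_P2166282: ggagggtactgccgttcctgtgtggtattt
Flt1, base 1881 of a placental cDNA clone, chr5:148465976-148466035, probe A_52_P405145: tccctatcccaactacacattcaatcttct

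The G and C content of the full probes was 55% for the first Kdr probe and 35% for the second. Neither shared a run of 16 bases with any other probe in the same orientation. The second Kdr probe shared such a run, in the opposite orientation, with a probe for C030034I22Rik. That neighbour, named after the match was seen, differed by 0.09 (SE 0.097, adjusted p = 0.796 in limma without the filter on dim probes). The Flt1 probes lie 73.1 kb and 92.2 kb apart from the first of them along the gene.

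Of the receptors, Kdr encodes the main VEGF receptor of endothelial cells. Its brighter probe, at base 4291, measured 12.002, 12.12, 12.92 and 12.36 in wildtype replicates 1 to 4, and 11.96, 11.96, 12.38 and 11.43 in the heterozygous replicates. The groups overlapped: 3 wildtype samples lay within the heterozygous range, and the highest value of all was wildtype replicate 3. The difference was -0.42 (SE 0.230, 95% interval -0.95 to 0.11, n = 4 per genotype, adjusted p = 0.632 in limma). It was -0.29 in the Cy3 samples and -0.55 in the Cy5 samples, and -0.55 without heterozygous replicate 3.

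The second Kdr probe, at base 5377, was printed on 10 spots of each array, so its values rest on more spots than those of any other member. It measured 9.07, 9.24, 9.24 and 8.97 in wildtype replicates 1 to 4, against 9.38, 9.09, 9.36 and 8.99 in the heterozygous ones. The ranges overlapped almost fully, and the difference was 0.08 (SE 0.115, adjusted p = 0.852 over all probes in limma). The SD over the 10 spots of 1 sample was 0.121 to 0.221, and the SD of the 8 sample means was 0.160. The probes of Kdr therefore gave differences of opposite sign. The gap between them, brighter minus second, averaged 3.22 ± 0.38 over wildtype samples (SD, n = 4) and 2.73 ± 0.26 over heterozygous ones (SD, n = 4). In an exact two-sided permutation test chosen after the values were seen, the gap did not differ beyond the spread between samples (difference -0.50, p = 0.114, also 0.114 after adjustment over 2 such tests). It was -0.59 without heterozygous replicate 3 (exact p = 0.114, or 0.143 after adjustment). Which probe reads the transcripts of striatal vessels was not tested.

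**Figure D2:**
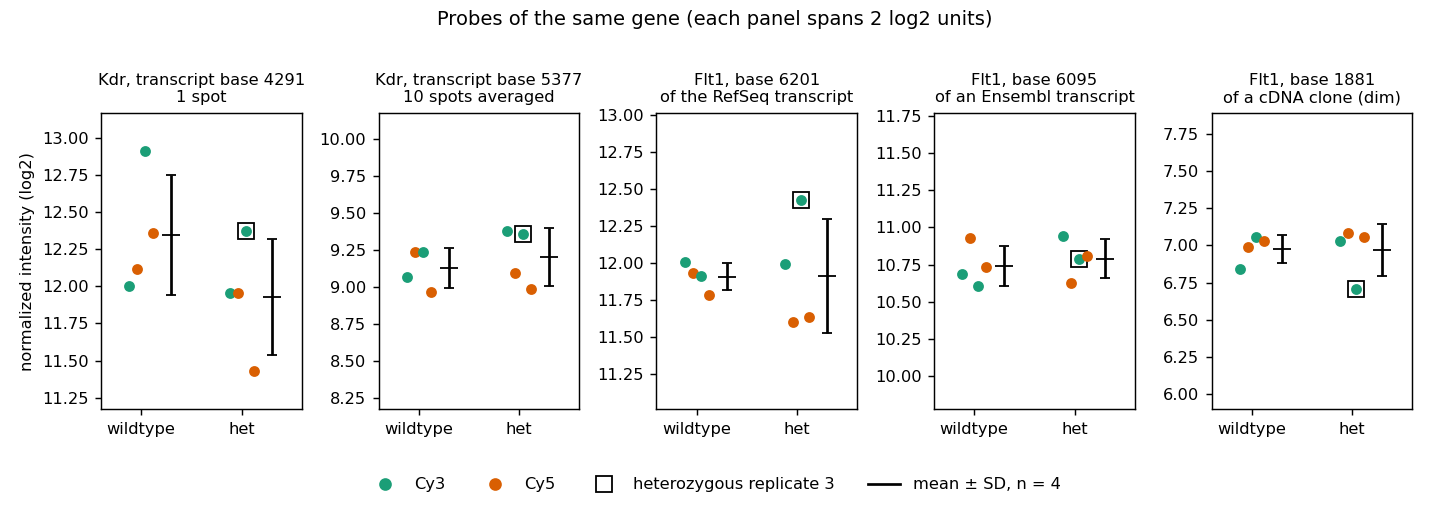
Normalized intensity (log2, each axis spanning 2 units) at the 2 Kdr probes and the 3 Flt1 probes, by genotype, with points coloured by dye, bars giving mean ± SD (n = 4) and squares marking heterozygous replicate 3. The heterozygous mean is lower at the first Kdr probe (11.93 against 12.35) and not at the second (9.20 against 9.13), while the Flt1 means lie within 0.05 of each other at each probe.

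Flt1 encodes a VEGF receptor that also exists as a soluble form, which binds the ligand without signalling. Its brightest probe measured 12.01, 11.94, 11.91 and 11.79 in wildtype replicates 1 to 4, against 11.99, 11.60, 12.43 and 11.64 in the heterozygous ones. Wildtype samples were close together, and the heterozygous ones lay on both sides of them. The difference was 0.004 (SE 0.149, interval -0.34 to 0.35, adjusted p = 0.995 in limma), with 0.25 in Cy3 and -0.24 in Cy5. The high value of 12.43 belonged to heterozygous replicate 3, and without it the difference was -0.13 (SE 0.115). The probe of the Ensembl transcript gave 0.05 (SE 0.118) with heterozygous replicate 3 at 10.79, inside the wildtype range of 10.61 to 10.93. The clone probe was not well above background in any wildtype sample and was so in 1 heterozygous sample, so no fold is given for it.

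Tek, the angiopoietin receptor (probe at chr4:94540624-94540683), measured 8.08, 7.83, 8.10 and 7.99 in wildtype samples. The heterozygous values were 8.34, 8.35, 8.03 and 8.75. Of the heterozygous samples 3 lay above all wildtype samples, and replicate 3 lay among them. The difference was 0.37 (SE 0.162, interval -0.01 to 0.74, adjusted p = 0.583 in limma), or 0.50 (SE 0.152) without heterozygous replicate 3. It was 0.09 in Cy3 and 0.64 in Cy5. In Cy3 only 1 of the 4 samples, heterozygous replicate 1, was well above background at this probe, so the Cy3 difference was measured near the detection limit.

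The intervals of the 3 junction and adhesion genes all held 0, and they differed in width. Cdh5, the cadherin of endothelial adherens junctions (chr8:106668159-106668218), measured 9.18, 9.39, 9.12 and 9.27 in wildtype replicates 1 to 4, against 9.28, 9.40, 9.40 and 9.42 in the heterozygous ones. The groups overlapped as measured and did not once the dye effect was removed. The difference of 0.13 (SE 0.094, interval -0.08 to 0.35, adjusted p = 0.685 in limma) had the narrowest interval of the 10 genes, and was 0.10 without heterozygous replicate 3. An exact two-sided permutation test of the measured values gave p = 0.0571. Groups did not overlap after dye removal for 2 of the 10 members, Cdh5 and Pdgfrb, where the background was 8.7% of the 18588 genes with all values.

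Pecam1, an adhesion molecule at endothelial cell contacts (chr11:106540864-106540923), measured 9.19, 9.20, 8.69 and 9.18 in wildtype replicates 1 to 4, against 8.94, 9.17, 8.87 and 9.28 in the heterozygous ones. The ranges covered each other almost fully. The difference was 0.001 (SE 0.127, interval -0.29 to 0.29, adjusted p = 0.999 in limma), and 0.03 without heterozygous replicate 3.

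Cldn5, the main claudin of the blood-brain barrier (chr16:18778046-18778105), measured 12.58, 11.99, 12.39 and 11.48 in wildtype replicates 1 to 4, against 12.53, 12.16, 12.05 and 12.54 in the heterozygous ones. All heterozygous values lay inside the wildtype range, which was set by the low value of wildtype replicate 4. The difference was 0.21 (SE 0.223, interval -0.31 to 0.72, adjusted p = 0.781 in limma). It was -0.20 in Cy3 and 0.61 in Cy5, and 0.40 (SE 0.202) without heterozygous replicate 3.

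The transporters gave the same picture. Slc2a1, the glucose transporter of the barrier (chr4:118809864-118809923), measured 12.64, 13.19, 12.82 and 13.51 in wildtype replicates 1 to 4, against 12.94, 13.30, 13.48 and 12.93 in the heterozygous ones. The groups overlapped, and the highest value of all was wildtype replicate 4. The difference was 0.12 (SE 0.204, interval -0.35 to 0.59, adjusted p = 0.872 in limma), with 0.48 in Cy3 and -0.24 in Cy5. Without heterozygous replicate 3 it was -0.08.

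Abcb1a, which encodes the P-glycoprotein efflux pump (chr5:8748075-8748134), measured 10.11, 10.51, 9.79 and 10.18 in wildtype replicates 1 to 4, against 10.18, 10.36, 9.55 and 10.65 in the heterozygous ones. Both the highest and the lowest value were heterozygous, and the lowest was replicate 3. The difference was 0.04 (SE 0.178, interval -0.37 to 0.45, adjusted p = 0.964 in limma), or 0.20 (SE 0.146) without that library. Its paralogue Abcb1b, read by a separate probe that shared no run of 16 bases with it, differed by 0.25 (SE 0.110, adjusted p = 0.581).

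Of the mural genes, Pdgfrb encodes the receptor for PDGF-B, which endothelial cells secrete to recruit and keep pericytes. Its probe (chr18:61244606-61244665) measured 10.12, 9.99, 9.84 and 9.998 in wildtype samples. The heterozygous values were 10.16, 10.34, 10.67 and 10.25, all above the highest wildtype value. The difference was 0.37 (SE 0.138, interval 0.05 to 0.69, unadjusted p = 0.0285, adjusted p = 0.525 in limma), a 1.29-fold higher level. It was 0.44 in Cy3 and 0.30 in Cy5. The exact two-sided permutation p of 0.0286 is the smallest that 4 against 4 samples can give. Like the other exact tests here, it treats all 8 samples as exchangeable, although each array carried 2 samples of 1 genotype. The 4 arrays can be split 2 against 2 in only 3 ways. Groups did not overlap in measured values for 1 of the 10 members, Pdgfrb, and for 4.83% of all genes. The highest value belonged to heterozygous replicate 3. Without it the difference was 0.25 (SE 0.115, adjusted p = 0.468 in limma), and the unadjusted p of 0.064 was no longer under 0.05.

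Meningeal fibroblasts also express Pdgfrb, and their markers were examined beside it. Of 13 genes on that list 12 were tested, and 10 of these were higher and 2 lower in heterozygous samples, with a median difference of 0.40. None passed in limma. An unadjusted p under 0.05 was found for 6, all higher, where 8.7% of all genes had one and 3.89% were also higher. The mean level of the list above the wildtype mean ranged from -0.08 to 0.11 in wildtype and from 0.19 to 0.76 in heterozygous samples. The level of 0.76 was that of heterozygous replicate 3, and the next highest was 0.58 in heterozygous replicate 4. Without heterozygous replicate 3 the median was 0.44. The collagen gene Col1a1 stood at a difference of 0.32 (SE 0.164), with 2 samples per genotype well above background. Lum, Ogn, Igf2 and Aldh1a2 were also well above background in 2 per genotype. Col1a2 and Dcn, well above background in every sample, differed by -0.08 (SE 0.140) and 0.20 (SE 0.164), and without heterozygous replicate 3 by -0.19 and 0.09. Pdgfra, detected as widely, differed by -0.10 (SE 0.123), or -0.04 without heterozygous replicate 3. Igfbp2 and Ptgds, also well above background in every sample, differed by 1.42 (SE 0.439) and 0.70 (SE 0.204). Without that library Igfbp2 differed by 0.91. Slc13a4 and Slc6a13, each dim in 1 wildtype sample only, differed by 1.05 (SE 0.397) and 0.82 (SE 0.262), and Slc13a4 by 0.64 without that library. Which cells gave the signal of the listed genes was not tested, nor was the part of meningeal fibroblasts in the Pdgfrb difference.

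Rgs5, a regulator of G-protein signalling abundant in pericytes (chr1:171623021-171623080), leaned the other way. It measured 10.29, 10.01, 9.40 and 9.95 in wildtype replicates 1 to 4, against 10.02, 9.57, 8.95 and 9.79 in the heterozygous ones. The groups overlapped, and the lowest value was heterozygous replicate 3, where the probe was not well above background. The difference was -0.33 (SE 0.267, interval -0.95 to 0.29, adjusted p = 0.714 in limma), with -0.36 in Cy3 and -0.30 in Cy5. Without heterozygous replicate 3 it was -0.11. The gap between the genes, Pdgfrb minus Rgs5, averaged 0.07 ± 0.26 over wildtype samples (SD, n = 4) and 0.78 ± 0.68 over heterozygous ones (SD, n = 4). Their difference of 0.70 missed the threshold in an exact two-sided permutation test chosen after the values were seen (p = 0.0571, or 0.114 after adjustment over 2 such tests). Without heterozygous replicate 3 it was 0.39 (exact p = 0.143).

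**Figure D3:**
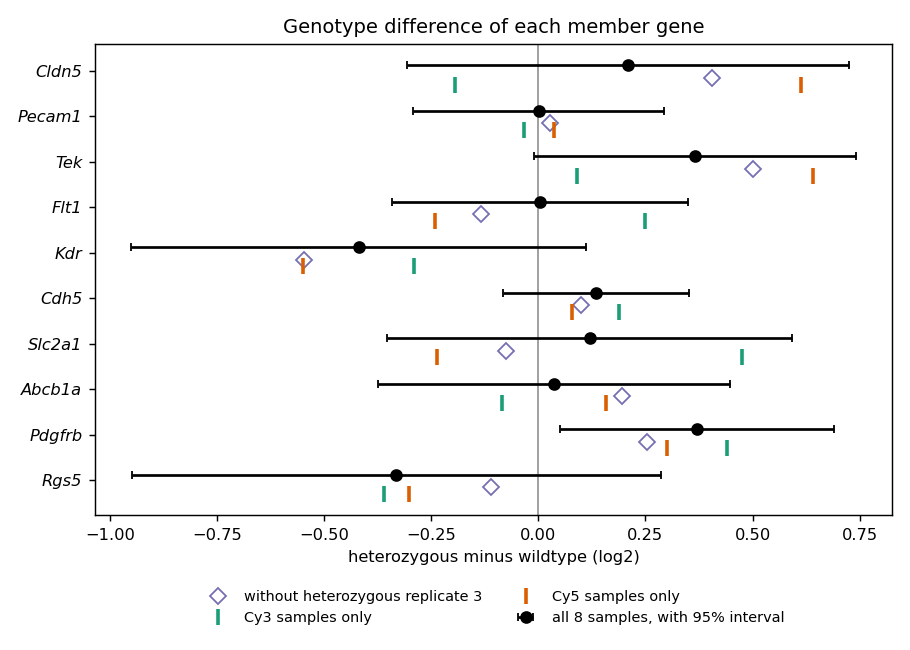
Heterozygous minus wildtype difference (log2, horizontal axis) of each of the 10 genes, as black points with 95% intervals for all 8 samples, open diamonds without heterozygous replicate 3, and coloured ticks for the Cy3 and Cy5 samples alone. Intervals hold 0 for all 8 endothelial genes and for Rgs5, and lie above 0 for Pdgfrb (0.05 to 0.69). They are not adjusted for the number of genes, and without heterozygous replicate 3 that of Pdgfrb would hold 0 (unadjusted p = 0.064 in limma).

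The mural pair had a median of 0.02, or 0.07 without heterozygous replicate 3. Set side by side, 7 of the 8 endothelial genes had a difference above 0, with a median of 0.08, where 45.6% of all genes were above 0 and the median of all genes was -0.02. Without heterozygous replicate 3, 5 of 8 were above 0, with a median of 0.06, against 46.6% and -0.02. The dyes gave the same direction for 5 of the 10 genes. Tek, Cdh5 and Pdgfrb were higher and Kdr and Rgs5 lower in both. Flt1 and Slc2a1 were higher in Cy3 and lower in Cy5, and Cldn5, Pecam1 and Abcb1a the reverse.

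The mean level of the 8 endothelial genes, relative to the wildtype mean and with the dye effect removed, stayed within narrow limits, from -0.03 to 0.02 in wildtype and from 0.04 to 0.08 in heterozygous samples. These ranges did not overlap, with a mean difference of 0.06. Of 18588 single genes, 8.7% had groups that did not overlap after dye removal, and no such share was computed for means of lists. Kdr entered by its brighter probe only. Single genes differed in opposite directions beneath the endothelial mean. The 5 other genes whose values over the 8 samples were most like that mean were Ak5, Dtl, Map2k4, Dact1 and Myadm, with Pearson r from 0.978 to 0.993 and Spearman rho from 0.929 to 1. The likeness was sought among 18578 genes, the samples share arrays and genotype, and none of the 5 was on any vascular list. All 5 were higher in heterozygous samples, by 0.34 (Myadm) to 0.60 (Map2k4), with adjusted p from 0.427 to 0.516 in limma. Because the endothelial mean was itself higher in every heterozygous sample, the choice by likeness fixed the direction of these 5 genes. Their differences without heterozygous replicate 3 are not given. The 8 endothelial genes themselves had r from -0.72 (Kdr) to 0.81 (Cdh5) with their own mean.

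**Figure D4:**
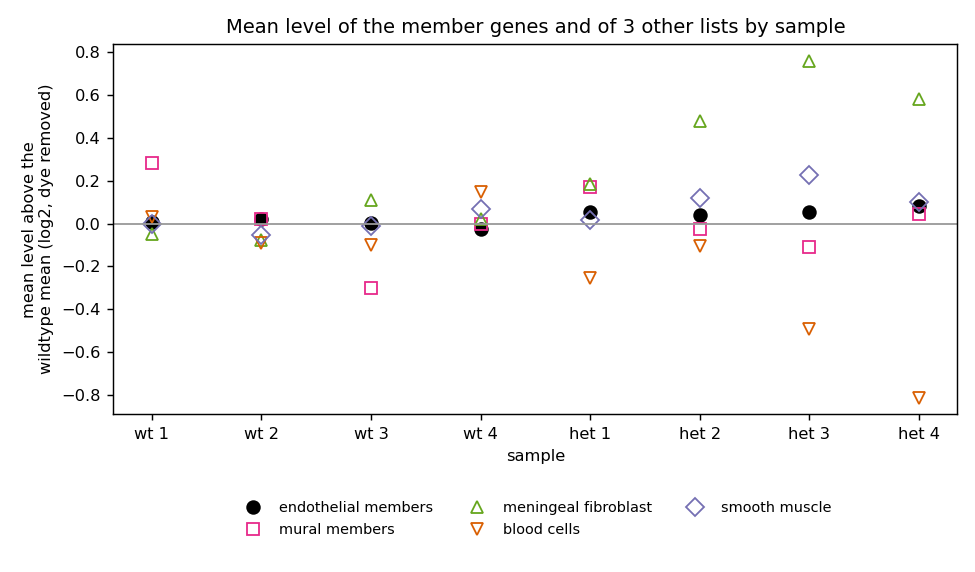
Mean level of the 8 endothelial genes, the 2 mural genes and the lists of meningeal fibroblast, blood cell and smooth muscle markers in each of the 8 samples (log2 above the wildtype mean, dye effect removed). Endothelial levels lie between -0.03 and 0.08 in every sample. Meningeal levels reach 0.76 in heterozygous replicate 3 (0.58 in heterozygous replicate 4), and blood cell levels reach -0.81 in heterozygous replicate 4.

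The wider set of vessel genes was taken from lists chosen for their known roles, and no listed gene passed in limma. Among 37 tested endothelial genes beyond the members, 22 were higher and 15 lower, with a median of 0.05, or 0.08 without heterozygous replicate 3. Of all genes 8.7% had an unadjusted p under 0.05, 3.89% higher and 4.8% lower. A share near that 8.7% was found here, with 3 higher genes and no lower one. These were Sox18, a transcription factor of endothelial cells, at 0.84 (SE 0.275), S1pr1, a sphingolipid receptor that steadies vessel walls, at 0.39 (SE 0.130), and the surface glycoprotein gene Cd34 at 0.67 (SE 0.242), named after its value was seen. Sox18 was 8.44 to 9.57 in wildtype and 9.44 to 10.33 in heterozygous samples, so the groups overlapped. Without heterozygous replicate 3 its difference was 0.97.

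Of 19 tested pericyte genes 11 were higher and 8 lower, with a median of 0.02 (-0.01 without heterozygous replicate 3) and none at an unadjusted p under 0.05. Atp13a5 differed by 0.77 (SE 0.502) and Mcam by 0.26 (SE 0.223). Both stood well within their spread, and wildtype replicate 3 alone measured 5.89 for Atp13a5, against 8.01 to 8.53 in the other wildtype samples. Of 7 tested smooth muscle genes 4 were higher, with a median of 0.05, or 0.11 without heterozygous replicate 3. Among them were the contractile genes Cnn1 at 0.49 (SE 0.179, well above background in 2 samples per genotype) and Smtn at 0.52 (SE 0.213). Acta2 and Tagln, defining markers of these cells, differed by 0.38 (SE 0.201) and -0.37 (SE 0.275).

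For the ligands and receptors of the VEGF and angiopoietin families, 10 of 14 tested genes were higher, with a median of 0.14. Vegfc, a ligand of VEGF receptors, differed by 0.33 (SE 0.106), and Nrp1, a co-receptor, by 0.30 (SE 0.110). Both were well above background in at most 3 samples of a genotype. The PDGF and TGF-beta list split into 7 higher and 6 lower genes, and its 3 genes at an unadjusted p under 0.05 were all lower, where 4.8% of all genes were lower at that limit. They were Acvrl1, a receptor of endothelial BMP signalling, at -0.61 (SE 0.196), Smad5, which carries that signal, at -0.29 (SE 0.111), and the receptor gene Tgfbr1 at -0.26 (SE 0.110). The median of that list was 0.18 and its mean -0.01, and the median without heterozygous replicate 3 was 0.08. Acvrl1 measured 11.46 to 11.94 in wildtype and 10.66 to 11.42 in heterozygous samples. Its groups did not overlap, and without heterozygous replicate 3 the difference was -0.76.

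Among basement membrane genes 9 of 13 were higher, with a median of 0.16. The collagen IV genes Col4a2 and Col4a1 differed by 0.52 (SE 0.147) and 0.46 (SE 0.180), and the laminin gene Lamb1 by -0.98 (SE 0.296), with 3 heterozygous values after an outlier spot was left out. Col4a2 lay between 9.05 and 9.27 in wildtype and between 9.19 and 10.03 in heterozygous samples, where replicate 3 was the lowest. Junction genes had 8 higher of 13, with Cgn at 0.28 (SE 0.152) and Cdh2 at 0.43 (SE 0.279), or 0.13 and 0.21 without heterozygous replicate 3. The median of that list was 0.12, and 0.05 without that library. Notch and Wnt genes had 12 higher of 18, with Notch1 at 0.38 (SE 0.212, or 0.14 without heterozygous replicate 3) and Apcdd1 at 0.26 (SE 0.119). Cgn and Apcdd1 were well above background in 2 samples per genotype, and Notch1 in 2 wildtype and 3 heterozygous samples. Transporters beyond the members had 10 higher of 14, with a median of 0.14, or 0.22 without heterozygous replicate 3. The smallest p among them belonged to Slc3a2, a chain of amino acid transporters, at 0.31 (SE 0.106), and Abcb1b. None of the named genes of these lists passed, with adjusted p from 0.453 to 0.730 in limma.

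**Figure D5:**
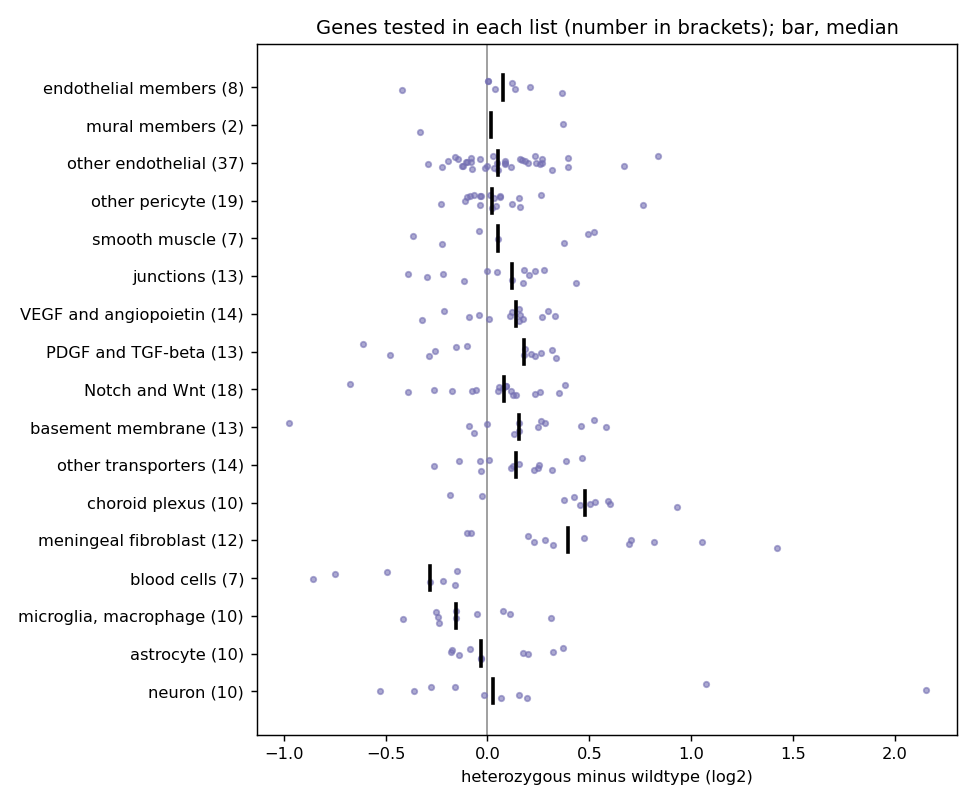
Heterozygous minus wildtype difference (log2, horizontal axis) of every tested gene in each list, as points with the number tested in brackets and a bar at the median. The endothelial and mural medians lie at 0.08 and 0.02, the meningeal median at 0.40 and the blood cell median at -0.28.

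Blood cells lie inside the vessels. All 7 tested markers of these cells had a difference below 0, where 45.6% of all genes were above 0, with a median of -0.28, or -0.21 without heterozygous replicate 3, and none passed in limma. The beta-globin genes Hbb-bt and Hbb-bs differed by -0.75 (SE 0.299, 3 wildtype values) and -0.86 (SE 0.349), and the heme synthesis gene Alas2 by -0.49 (SE 0.187). Choroid plexus markers had a median of 0.48, which was 0.01 without heterozygous replicate 3. Markers of microglia and macrophages had a median of -0.15, or 0.04 without heterozygous replicate 3, with Aif1 at -0.41 (SE 0.232). Astrocyte markers had a median of -0.03, or -0.13 without that library. Gfap differed by 0.68 (SE 0.418) and 0.02 (SE 0.416) at its further probes. At its brightest probe it differed by 0.20 (SE 0.373), or 0.45 without heterozygous replicate 3. Of 10 neuron markers 5 were higher, with a median of 0.02, or 0.13 without it. The largest differences were those of Slc17a7, a glutamate transporter gene of cortical neurons, at 2.15 (SE 0.406, adjusted p = 0.427 in limma), and the tubulin gene Tubb3 at 1.07 (SE 0.355). The part of these cells in the values of the vessel genes was not tested. Slc2a1 is expressed by astrocytes and choroid plexus as well as endothelium, and the part of these cells in its values was not tested.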

How the data were processed

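Members and gene lists were chosen with earlier results of these data known. Spot intensities (linear scale) came from Agilent Feature Extraction 10.7.3.1, per the file headers; the same deposited files hold processed intensities. The deposited value table holds a ratio of background-subtracted median intensity to its column's median, found by matching every listed spot within a tolerance of 0.0001; each column's median is 1. Both samples of an array had identical files, and each was read from its own channel.

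Analysis used limma 3.58.1 under R 4.3.3. Mean intensities went through normexp with an offset of 50, then loess on each array and Aquantile across arrays, and were split by channel into log2 values. The 1377 control spots and spots marked as outliers were dropped, none being saturated, and repeated spots were averaged. Probes well above background in at least 4 of 8 samples were kept (25336 of 39429), and the brightest stood for a gene, named through RefSeq accessions (GRCm38.p6) where possible. Genotype and dye were fixed effects and array a random block (correlation 0.0081), with Benjamini-Hochberg adjustment over 19837 genes. Each array held 1 genotype, so array and genotype cannot be fully told apart. On simulated data with the spreads of 18588 genes, 64 of 100 genes changed 2-fold and 21 of 100 changed 1.5-fold were recovered, with 6 false calls. The simulated noise was independent between samples and held no array effect, so these shares may not carry over to the measured data.

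Named beside the members were Brd2, the 2 genes with the smallest p of each vessel list, Ttr, Hbb-bt, Gfap, Aif1, Col1a1 and the 5 genes most like the endothelial mean. Further genes were named after their values were seen: C030034I22Rik, Cd34, Tgfbr1, Col4a1, Hbb-bs, Alas2, and the markers Acta2, Tagln, Col1a2, Dcn, Pdgfra, Lum, Ogn, Igf2, Aldh1a2, Igfbp2, Ptgds, Slc13a4, Slc6a13, Slc17a7, Tubb3, Drd1, Drd2 and Ppp1r1b. Of 6 further kept probes of the named genes that are not members, only the second Brd2 probe had a sign opposite to the brightest. Promoter and protein sequences were not used here. Figures were drawn with matplotlib 3.10.9.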

Additional observations from a re-analysis of the deposited data

Results flagged for a closer look

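Dixon's criterion compared the distance of the most extreme sample with the range of its group in 62 sets of 4 samples. Chance alone passes it in about 1 of 20 sets. The sets were those of the 10 genes and of the rule-named vessel and cell marker genes, per genotype where all values were present. Brd2 was not among them. The criterion was passed in 1 set: Flt1 in heterozygous replicate 3, at 12.25 after removal of the dye effect, where the nearest heterozygous sample measured 11.82. The second kept Flt1 probe did not set this library apart.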

How the results depend on the processing

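Over 25 alternatives, among them the background correction, the normalization, the probe filter, the dye, the blocks and leaving out each sample, no member passed in any. Tek, Kdr, Cdh5, Pdgfrb and Rgs5 kept their sign wherever they were tested; under the strictest probe filter (detection in all 8 samples), Tek and Rgs5 were not tested. Pdgfrb ranged from 0.25 to 0.55, with a smallest adjusted p of 0.331. With the replicate number as a block, an arbitrary number here (correlations of same-numbered samples -0.289 to 0.164), no call changed; the replicate block gave 0 genes passing, as without it. All genes passing numbered 1 in the Cy5 samples alone and 1 in the probe-level fit.

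In Cy3 alone the signs turned for Cldn5 (-0.195), Pecam1 (-0.034) and Abcb1a (-0.085), and in Cy5 alone for Flt1 (-0.241) and Slc2a1 (-0.236). Flt1 also turned with the value table (-0.025), without background correction (-0.006) and with quantile normalization (-0.005), and Pecam1 with an offset of 10 (-0.004), processed signals (-0.028) and quantile normalization (-0.032). Leaving out 1 sample gave ranges of -0.014 to 0.405 for Cldn5, -0.096 to 0.111 for Pecam1, -0.134 to 0.104 for Flt1, -0.075 to 0.334 for Slc2a1 and -0.108 to 0.196 for Abcb1a. Among the others, Tek was 0.189 without heterozygous replicate 4, and 0.169 (SE 0.243) with quantile normalization. Kdr was -0.246 without wildtype replicate 3, -0.25 without heterozygous replicate 4 and -0.639 without wildtype replicate 1. With the mean of its kept probes in place of the brightest, Kdr was -0.172 (SE 0.151). Rgs5 was -0.141 and -0.512 without wildtype replicates 1 and 3, and -0.541 and -0.11 without heterozygous replicates 1 and 3. The endothelial median moved to 0.029 in Cy3, 0.057 in Cy5, 0.034 with the value table, 0.057 with quantile normalization, 0.036 under the strictest filter, and 0.229 with no normalization between arrays, where the median of all genes was 0.09. Leaving out 1 sample put it between 0.024 and 0.121. The mural median was 0.37 under that filter, where Pdgfrb alone was left. The cause of these turns was not tested, other than the fewer samples or genes that a setting leaves. Among the members, signal near background limits Tek, Rgs5 and the third Flt1 probe.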
